A study of Mus musculus with 18 samples.

Results

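The 4 mouse Hox clusters were examined as a group of regions. The members were the 109 of 194284 ATAC-seq peaks that overlapped the body, extended by 5000 bp on both sides, of any gene named Hoxa, Hoxb, Hoxc or Hoxd with a number in the mm9 GENCODE M1 annotation. These are 39 genes, 11 in HoxA, 10 in HoxB, 9 in HoxC and 9 in HoxD, and each had at least 1 member peak. HoxA held 22 members, HoxB 32, HoxC 28 and HoxD 27, and the authors' classification placed 65 of them as promoter and 44 as distal. The members of a cluster were numbered from its lowest coordinate, so that HoxD-peak5 is the fifth peak from the low end of the HoxD window on chromosome 2. All 109 passed the filter on low counts that 194230 peaks passed.

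ATAC-seq measures accessibility as the number of transposase insertions, read as sequenced fragments, in a region. Bone marrow-derived macrophages (BMDMs) were grown for 6 days in L929-conditioned medium from 3 male, 12-week-old Il10-/- mice on the C57BL/6J background, which cannot make the anti-inflammatory cytokine IL-10, so that all 6 groups share this deletion. Each group has 3 libraries, 18 in all. Unstimulated cells received neither agent nor LPS, and the JQ1 group received 500 nM (+)-JQ1, an inhibitor that displaces BET proteins from acetylated histones. The IL-10 group received 10 ng/mL IL-10. LPS, a component of bacterial cell walls, was given at 50 ng/mL for the last 4 h in the groups named for it (LPS, LPS+JQ1, LPS+IL-10), after 12 h with or without JQ1 or IL-10, and all groups were collected at 16 h. The study's methods name a vehicle control for the 12 h before LPS and call the Unstimulated cells untreated. Any part of the vehicle in the comparisons with Unstimulated was not tested. The sources used here do not say which library came from which mouse. The 3 comparisons with Unstimulated share its libraries, and both comparisons with LPS share the LPS libraries. In bulk cells, fewer cells with an open region and less accessibility per cell cannot be told apart.

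Hox genes encode homeodomain transcription factors that give cells their position along the body axis. Genes within a cluster are ordered along the chromosome as they are used along the axis, and the proteins bind DNA with PBX and MEIS cofactors. In blood, Hoxa9 and Hoxa10 are best known from stem and progenitor cells, whose self-renewal they maintain, and they are turned down as cells mature. Polycomb complexes keep the clusters silent through methylation of H3K27, and the MLL methyltransferase with menin counteracts them. Hox clusters are also known for broad CpG-rich stretches with little DNA methylation.

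The sequences below come from the middle of 6 member peaks, shown because these are the strongest peaks of HoxA, HoxC and HoxD and peaks on which the comparisons turn. All are on the plus strand of mm9, and capitals mark CG dinucleotides. HoxA-peak9 lies over the start and first coding exon of Hoxa4, HoxA-peak4 in an intron of the noncoding gene Gm15051, HoxC-peak17 in the window before the start of Hoxc8, HoxC-peak18 over the start and first exon of Hoxc8, HoxD-peak5 between Hoxd13 and Hoxd12, and HoxD-peak21 over the start of the noncoding gene 1700109F18Rik inside Hoxd3.
HoxA-peak9, chr6:52141753-52141882: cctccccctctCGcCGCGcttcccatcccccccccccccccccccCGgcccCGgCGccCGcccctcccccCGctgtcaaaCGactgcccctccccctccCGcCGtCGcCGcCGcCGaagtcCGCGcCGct
HoxA-peak4, chr6:52110275-52110574: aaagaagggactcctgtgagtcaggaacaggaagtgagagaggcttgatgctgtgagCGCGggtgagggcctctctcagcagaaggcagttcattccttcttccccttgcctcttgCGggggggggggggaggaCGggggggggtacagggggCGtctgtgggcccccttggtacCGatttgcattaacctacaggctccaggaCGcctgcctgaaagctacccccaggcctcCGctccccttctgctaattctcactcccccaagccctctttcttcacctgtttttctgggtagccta
HoxC-peak17, chr15:102818333-102818632: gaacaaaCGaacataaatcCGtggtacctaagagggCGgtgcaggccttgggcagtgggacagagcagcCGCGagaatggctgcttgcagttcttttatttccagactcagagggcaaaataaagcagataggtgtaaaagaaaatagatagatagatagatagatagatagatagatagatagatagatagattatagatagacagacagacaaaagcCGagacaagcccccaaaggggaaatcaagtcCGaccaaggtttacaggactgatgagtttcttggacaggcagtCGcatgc
HoxC-peak18, chr15:102821302-102821601: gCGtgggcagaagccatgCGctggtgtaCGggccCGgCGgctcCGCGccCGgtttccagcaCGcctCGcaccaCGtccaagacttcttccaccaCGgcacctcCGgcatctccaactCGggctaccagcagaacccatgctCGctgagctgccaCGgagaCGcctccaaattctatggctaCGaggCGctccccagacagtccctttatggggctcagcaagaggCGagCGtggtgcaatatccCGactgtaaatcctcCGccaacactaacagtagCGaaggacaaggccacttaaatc
HoxD-peak5, chr2:74510853-74511152: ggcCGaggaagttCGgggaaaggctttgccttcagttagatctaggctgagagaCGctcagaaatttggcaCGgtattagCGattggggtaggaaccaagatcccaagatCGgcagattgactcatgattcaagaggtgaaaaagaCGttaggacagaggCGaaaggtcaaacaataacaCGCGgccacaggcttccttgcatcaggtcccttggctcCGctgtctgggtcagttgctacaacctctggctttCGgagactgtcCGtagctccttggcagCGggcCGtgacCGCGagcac
HoxD-peak21, chr2:74553934-74554233: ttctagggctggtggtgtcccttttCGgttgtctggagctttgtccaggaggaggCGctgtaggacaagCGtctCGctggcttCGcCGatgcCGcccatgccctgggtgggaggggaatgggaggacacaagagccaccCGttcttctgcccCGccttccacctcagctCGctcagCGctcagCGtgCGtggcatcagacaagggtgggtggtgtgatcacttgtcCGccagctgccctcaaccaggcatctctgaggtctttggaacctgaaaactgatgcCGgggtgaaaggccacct
The 130 bases of HoxA-peak9 hold 18 CG dinucleotides, against 8 in the 300 of HoxC-peak17 and 8 in those of HoxA-peak4. HoxC-peak18 has 24, HoxD-peak5 17 and HoxD-peak21 15.

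The total count in peaks was 12020526 to 25908198 per library, and a member peak held 1 to 1025 counts in a library, with a median of 45. Unstimulated 1 stood apart, with the smallest total and the highest TMM factor (1.24, against 1.04 and 1.151 in the other Unstimulated libraries and 0.896 to 1.05 in the treated ones). Start-site peaks were found for 8 of 8 macrophage markers, at a median of 18.8 CPM/kb (TMM-scaled CPM, or depth-scaled counts, divided by the width of the peak in kb), and for 0 of 3 T cell and 2 of 3 B cell markers, the latter at 0.967 and 2.45 CPM/kb. The 4 neutrophil and progenitor markers had a median of 3.10 and the 3 stem cell markers (Kit, Cd34 and Gata2) a median of 2.33 CPM/kb. Both dendritic cell, 2 of 3 fibroblast and both endothelial markers also had a start-site peak, at medians of 15.7, 5.01 and 10.7 CPM/kb. Among these, the dendritic cell marker Zbtb46 (27.8) and the endothelial marker Pecam1 (20.2) lay above the macrophage median. Flt3 (3.56) and Cdh5 (1.19), the other markers of these cell types, lay below it. Of the 23 markers with a start-site peak over all these lists, 6 were called higher and 2 lower with LPS, 6 higher with JQ1, 3 higher with IL-10 and 1 higher with either treatment against LPS. Of all 36666 tested promoter peaks, 5237 were called higher and 2459 lower with LPS, and 8407 higher and 789 lower with JQ1. With IL-10, 3198 were higher and 724 lower. Against LPS, 630 were higher and 1181 lower in LPS+JQ1, and 1115 higher and 1446 lower in LPS+IL-10. With LPS the neutrophil granule genes Camp and Ltf had log2 fold changes of 1.72 and -1.19, the stem cell markers Gata2 and Cd34 0.57 and -0.56, and the endothelial marker Pecam1 0.82. With JQ1 the macrophage markers Lyz2 and Mertk had 0.84 and 0.89, and Pecam1 0.54, all with TMM scaling. The part of other cell types in the Hox signal was not tested. Replicate 1 was sequenced in lane 5 and replicate 3 in lane 6 in every group, while replicate 2 was in lane 5 without LPS and in lane 6 with LPS.

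The HoxA cluster was the most accessible of the 4. Over the 18 libraries its members summed to a mean of 245 CPM, against 143 for HoxB, 86.9 for HoxD and 83.0 for HoxC. Per kb of peak the levels were 3.55 CPM in HoxA, 2.98 in HoxB, 2.17 in HoxD and 1.78 in HoxC. Peaks covered 57.3% of the HoxA window (genes on chr6:52105366-52210874), 39.8% of the HoxB window (chr11:96055630-96229570), 38.9% of the HoxC window (chr15:102751534-102867274) and 39.2% of the HoxD window (chr2:74506367-74603200). A width of 5 kb or more was found for 5 peaks in HoxA, 1 each in HoxC and HoxD and 0 in HoxB, and the widest was 12479 bp long and spanned the Hoxa11 start.

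**Figure D1:**
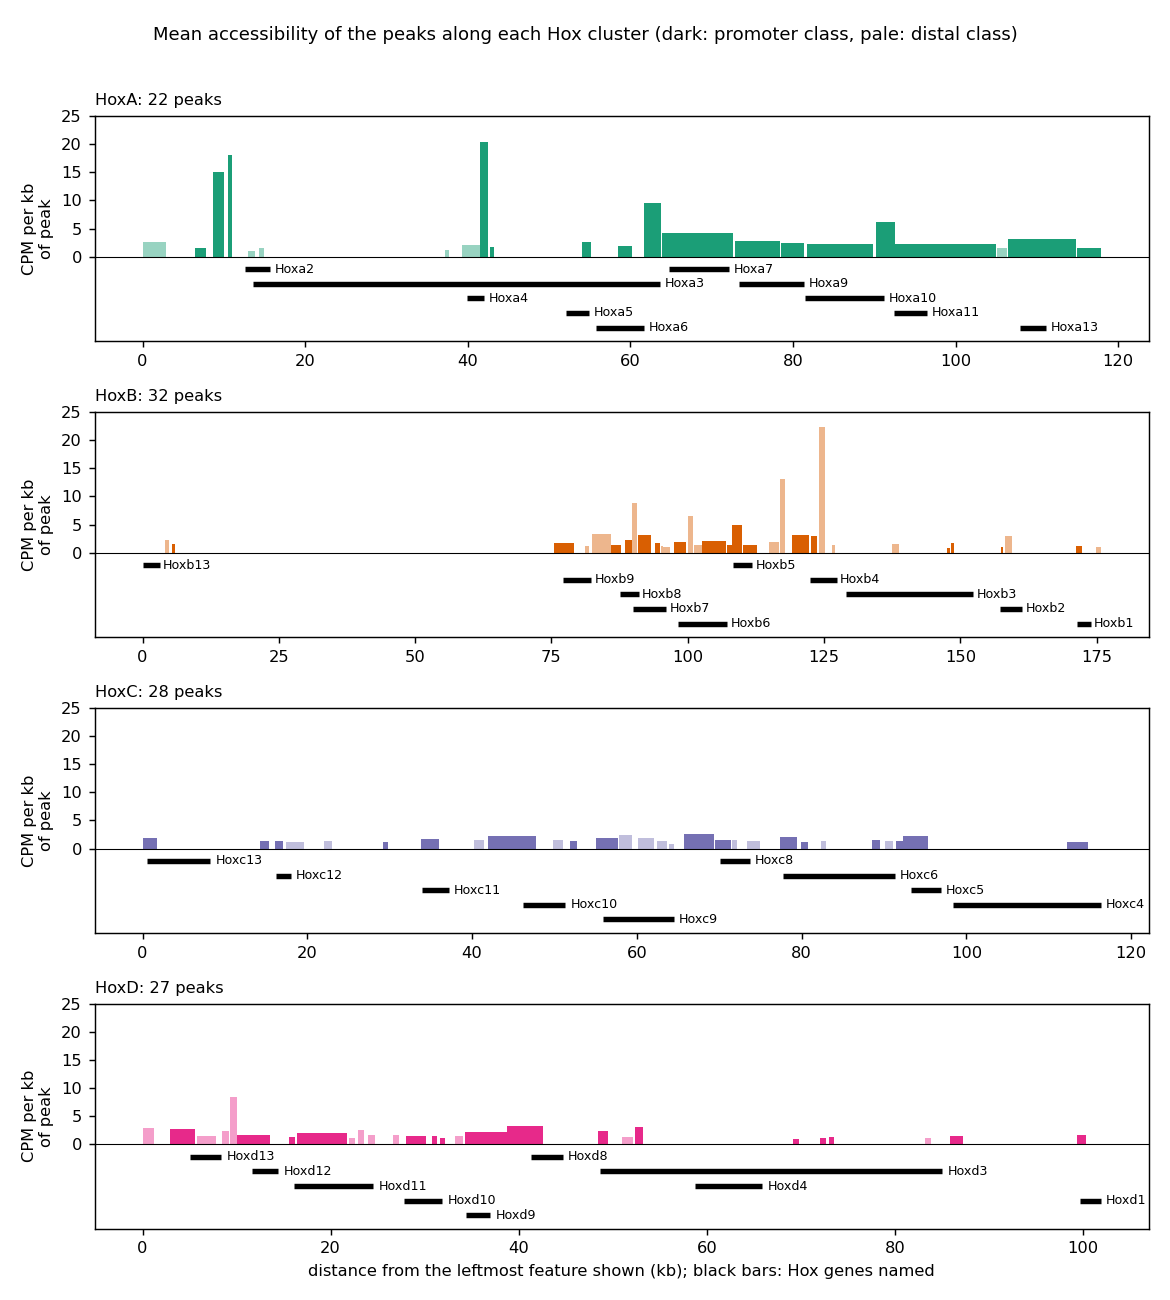
Mean accessibility of each member peak over the 18 libraries (height, CPM per kb of peak) against its position in the cluster (kb from the leftmost feature), with peaks drawn at their width, promoter class dark and distal class pale, and black bars for Hox gene bodies. HoxA holds 5 peaks above 5 CPM/kb, HoxB 4, HoxD 1 and HoxC 0.

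A few narrow peaks carried the highest levels. HoxB-peak24, in the exon of Hoxb4 and classed as distal, was the strongest member at 22.3 CPM/kb. HoxA-peak9 (chr6:52141268-52142197) at the start of Hoxa4 followed at 20.4, and HoxA-peak4 (chr6:52110165-52110683), in an intron of Gm15051, at 18.2 CPM/kb. In HoxD the strongest was HoxD-peak5 (chr2:74510618-74511387), an intergenic peak 1984 bp from the Hoxd12 start, at 8.43 CPM/kb. In HoxC no peak exceeded HoxC-peak17 (chr15:102816662-102820302), at 2.64 CPM/kb. Levels above 5 CPM/kb were reached by 9.17% of the members and by 12.0% of all peaks, and the median level was 1.64 CPM/kb in both.

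At the level of genes, 36 of 39 had a peak overlapping the window from 1000 bp before to 100 bp after an annotated start. Hoxa2, Hoxb13 and Hoxd4 had none. Where a gene had several, the peak of highest mean CPM was kept, which favours wide peaks, and this gave 34 distinct peaks. The start-site peaks had a median of 3.68 CPM/kb in HoxA (range 2.31 to 20.4), 2.07 in HoxB (1.07 to 8.79), 1.92 in HoxC (1.24 to 2.64) and 2.14 in HoxD (1.67 to 3.32). High values were those of Hoxa4 and Hoxa6 (9.52 CPM/kb) in HoxA and Hoxb7 (8.79) in HoxB. The peak kept for Hoxa6, HoxA-peak13, also holds the gene start of Hoxa3, for which a wider peak was kept. By this rule Hoxa9 and Hoxa10 shared 1 peak of 8076 bp, HoxA-peak17, whose 2.31 CPM/kb was the lowest level kept in HoxA. Hoxa3 and Hoxa7 shared HoxA-peak14 (8713 bp, 4.29 CPM/kb). Hoxa9 had 3 start-site peaks and Hoxa10 had 2. The gene start of Hoxa9 lies in HoxA-peak16 and that of Hoxa10 in HoxA-peak18, so the level of HoxA-peak17 does not stand for all starts of these genes.

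The members were rich in CpG, which is given here as a description with no test. The median ratio of observed to expected CpG was 0.487 in the members and 0.197 in all peaks, and it was higher both for promoter peaks (0.521 against 0.274) and for distal ones (0.431 against 0.186). A ratio above 0.6 was found in 27.5% of the members and 4.61% of all peaks. HoxD held 12 of the 30 such members, HoxB 7, HoxC 6 and HoxA 5. GC content had a median of 52.9% against 46.2%, and width a median of 1176 against 956 bp, with 6.42% of the members and 2.12% of all peaks at 5 kb or more.

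Known motifs were searched on both strands in the middle 500 bases of each peak, with n for any base. The AP-1 motif tgantca was present in 11.9% of the members and 18.1% of all peaks, in 22.2% of the HoxD and 3.57% of the HoxC peaks. An IRF motif was present in 11.9% against 7.19% of all peaks, with 18.8% in HoxB, and a kappaB motif in 3.67% against 2.34%. The CTCF core was in 4.59% against 7.38%, PU.1 (gaggaagt) in 4.59% against 6.54%, a homeodomain motif (taatta) in 11% against 10.5% and a HOX-PBX motif (tgattnat) in 3.67% against 6.46%. Among the peaks called in the comparisons, HoxD-peak5 held AP-1, CTCF and PU.1 matches, HoxD-peak21 a CTCF match and HoxA-peak4 an AP-1 match. A match describes the letters only, and binding was not measured.

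In each comparison a peak was called at an FDR (Benjamini-Hochberg adjusted p of edgeR's quasi-likelihood test over all tested peaks) under 0.05 and an absolute log2 fold change above 0.5. Log2 fold changes are given with their SE, and every group has 3 libraries. Shares over all tested peaks stand beside the main edgeR calls. Counts at an unadjusted p under 0.05, by DESeq2 or with a library left out stand without such a share. They show how the calls move and are not a result about the Hox peaks or the gene lists. A fit with a library left out has fewer libraries with which to call any peak.

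LPS against Unstimulated asks which regions respond to the stimulus. Accessibility rose at 8 of the 109 Hox peaks and fell at 0, where 11.7% of all tested peaks were called higher and 10.2% lower. At an unadjusted p under 0.05, 19 were higher and 3 lower, and DESeq2 called 9 higher and 0 lower. The direction of the count turned with scaling by total counts, which gave 1 higher and 4 lower (6.58% and 19.3% of all tested peaks). Of the 8 rises, 4 were in HoxB, 3 in HoxD and 1 in HoxC. HoxA had 0 called by edgeR and by DESeq2, with 3 higher and 0 lower at an unadjusted p under 0.05. The median log2 fold change was 0.08 in HoxA, 0.12 in HoxB, 0.08 in HoxC and 0.15 in HoxD, against -0.03 over all peaks, and it was negative in all 4 clusters when libraries were scaled by total counts and in HoxA also with loess offsets or separate scaling of promoter and distal peaks.

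The largest rise was at HoxD-peak21, at the start of 1700109F18Rik (chr2:74553675-74554492). It had 1.97, 2.96 and 2.48 CPM/kb in Unstimulated 1 to 3, and 5.17, 4.03 and 4.97 in LPS 1 to 3. Every LPS library was above every Unstimulated one, with a log2 fold change of 0.92 ± 0.25 (FDR = 0.00258). HoxD-peak21 was called under every alternative tried in this comparison.

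HoxB-peak13, over the start of Hoxb6 (chr11:96153090-96155354), had 1.89, 1.65 and 1.43 CPM/kb in Unstimulated and 2.6, 2.93 and 2.40 in LPS. The groups did not overlap (log2 fold change 0.68 ± 0.20, FDR = 0.00621), and the call was lost only with scaling by total counts (0.45, FDR = 0.0914). HoxD-peak5, the peak with AP-1, CTCF and PU.1 matches, had 5.48, 7.72 and 6.84 CPM/kb in Unstimulated and 10.4, 12.9 and 8.54 in LPS. Its groups did not overlap either (0.66 ± 0.18, FDR = 0.00272), with 0.50 (FDR = 0.0597) when LPS 2 was left out and 0.44 with total counts. The other called rises were at HoxD-peak1, HoxB-peak21, HoxB-peak14, HoxB-peak9 and HoxC-peak12, with log2 fold changes from 0.51 to 0.63, and at HoxC-peak12 and HoxD-peak1 the groups overlapped. HoxD-peak21 and HoxB-peak13 were called whichever of the 18 libraries was left out. HoxB-peak21 missed the fold threshold without Unstimulated 1 (0.43), and HoxB-peak9 and HoxB-peak14 missed the FDR without Unstimulated 1 (0.131 and 0.155) or LPS 1. HoxC-peak12 and HoxD-peak1 each lost the call without any of 4 libraries, Unstimulated 1 and LPS 1 among them. The number of rises was 4 without LPS 1 and 5 without Unstimulated 1. A single fall was called without Unstimulated 2, Unstimulated 3, LPS 1 or LPS 2.

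**Figure D2:**
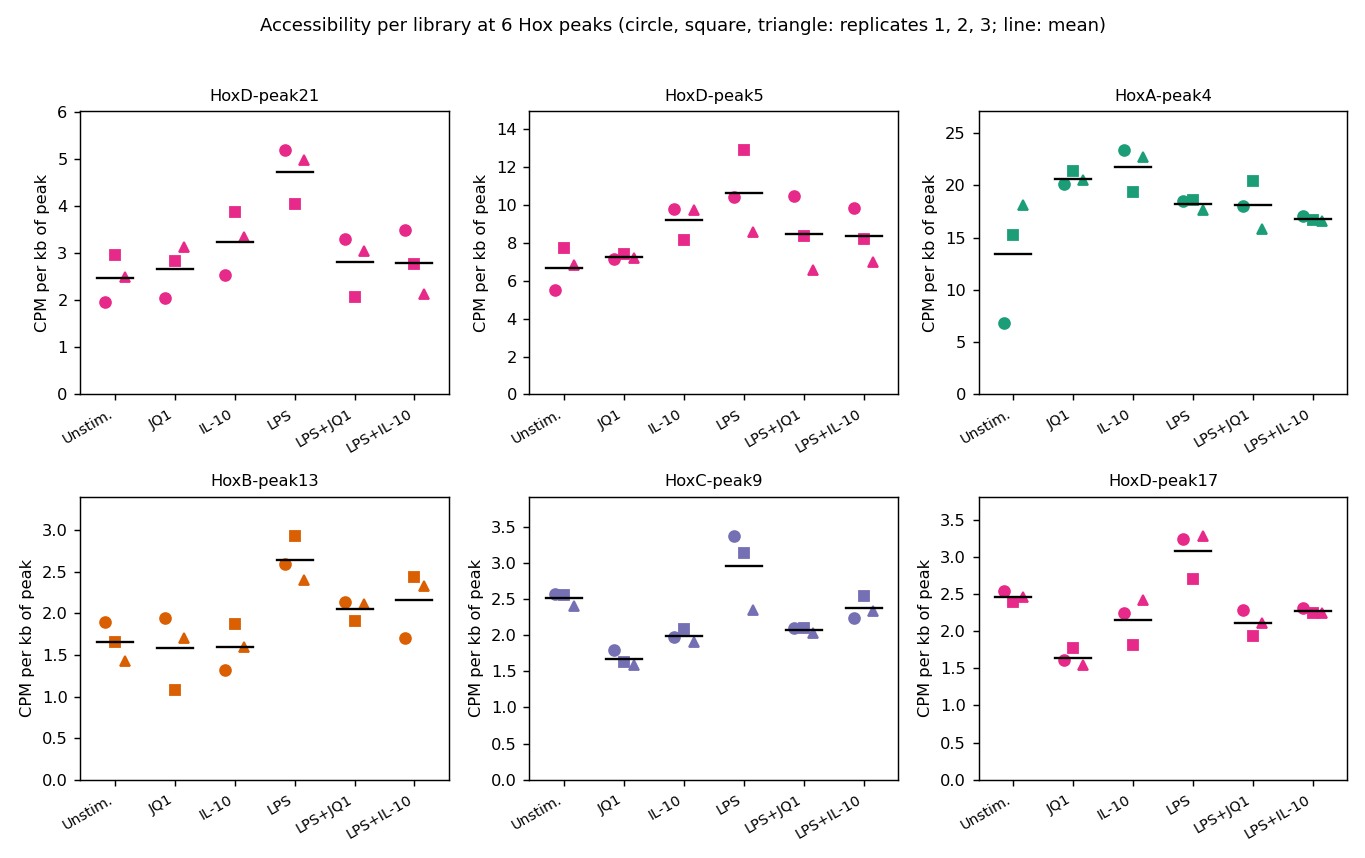
Accessibility (CPM per kb of peak) at 6 member peaks in each library of the 6 groups, with circles, squares and triangles for replicates 1, 2 and 3 and a line at the group mean. At HoxD-peak21 the 3 LPS libraries (4.03 to 5.17) lie above all other libraries, and at HoxA-peak4 Unstimulated 1 (6.85) lies below all others.

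JQ1 against Unstimulated compares cells given JQ1 without LPS with untreated cells. Accessibility fell at 10 Hox peaks and rose at 2, where 3.15% of all tested peaks were called lower and 7.85% higher. Falls were 9.17% of the members. Of the 10 falls, 6 were in HoxC, 3 in HoxD and 1 in HoxA, and both rises were in HoxA. HoxB had 0 calls by edgeR and by DESeq2, with 1 higher and 2 lower at an unadjusted p under 0.05. Over the members together DESeq2 called 2 higher and 8 lower. The count was 0 higher under the other 3 scalings, with 29 lower by total counts, 13 by loess offsets and 23 when promoter and distal peaks were scaled separately (14.1%, 2.13% and 4.21% of all tested peaks). The log2 fold change was negative at 23 of 28 HoxC peaks and 22 of 27 HoxD peaks, and at 15 of 22 in HoxA and 15 of 32 in HoxB. Medians were -0.33 in HoxC, -0.40 in HoxD, -0.18 in HoxA and 0.03 in HoxB, against -0.09 over all peaks. The HoxC, HoxD and HoxA medians were negative under all 4 scalings tried, and that of HoxB was negative under the other 3.

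The 3 largest falls were at HoxD-peak22, HoxC-peak19 and HoxC-peak15. HoxD-peak22, over a start of Hoxd3 (chr2:74570487-74571138), had 1.03, 1.52 and 1.94 CPM/kb in Unstimulated and 0.733, 0.646 and 0.241 in JQ1. The groups did not overlap (-1.5 ± 0.50, FDR = 0.0293), at a level near the bottom of all peaks, and the FDR was 0.0713 without Unstimulated 2, 0.106 without Unstimulated 3 and 0.208 without JQ1 3. HoxC-peak15, over an exon of Hoxc9 (chr15:102813387-102814661), had 1.37, 2.11 and 1.38 CPM/kb in Unstimulated and 0.983, 0.495 and 0.574 in JQ1. All JQ1 libraries were lower (-1.24 ± 0.32, FDR = 0.0031), with an FDR of 0.0664 without Unstimulated 2.

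HoxC-peak19, in a coding exon of Hoxc8 (chr15:102822519-102823096), had 3.48, 2.00 and 1.42 CPM/kb in Unstimulated and 1.55, 0.728 and 0.544 in JQ1. The groups overlapped and Unstimulated 1 was highest (-1.26 ± 0.42, FDR = 0.0324). Without Unstimulated 1 the value was -0.86 (FDR = 0.324), without JQ1 2 it was -1.13 (FDR = 0.12) and without JQ1 3 it was -0.96 (FDR = 0.209). The neighbouring HoxC-peak18 (-1.23, FDR = 0.000166) and the peaks HoxC-peak10, HoxC-peak4, HoxA-peak22, HoxD-peak17, HoxC-peak9 and HoxD-peak2 (-0.92 to -0.54) made up the other falls. Without Unstimulated 1, HoxC-peak18 had -0.71 (FDR = 0.105) and the number of falls was 6. HoxC-peak10, HoxC-peak4 and HoxD-peak2 each lost the call without 2 or more single libraries.

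HoxA-peak22, HoxC-peak9 and HoxD-peak17 were the JQ1 falls that were called whichever library was left out, and the last 2 are broad start-site peaks. HoxC-peak9, 5833 bp over the start of Hoxc10, had 2.57, 2.55 and 2.40 CPM/kb in Unstimulated and 1.80, 1.63 and 1.59 in JQ1 (-0.58 ± 0.15, FDR = 0.00195). HoxD-peak17, 4434 bp over the start of Hoxd9, had 2.54, 2.39 and 2.46 CPM/kb in Unstimulated and 1.61, 1.77 and 1.54 in JQ1 (-0.59 ± 0.15, FDR = 0.00356). At both, the spread within each group was small beside the distance between them.

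The 2 rises were the strong narrow peaks HoxA-peak4 and HoxA-peak9. HoxA-peak4 had 6.85, 15.3 and 18.1 CPM/kb in Unstimulated and 20.1, 21.4 and 20.5 in JQ1. The JQ1 libraries were all higher (0.60 ± 0.17, FDR = 0.00739), but Unstimulated 1 was far below its group, and without it the value was 0.31 (FDR = 0.291). HoxA-peak9, at the Hoxa4 start, had 13.3, 16.7 and 19.3 CPM/kb in Unstimulated and 22.1, 30.9 and 20.03 in JQ1. These groups did not overlap (0.56 ± 0.14, FDR = 0.00289), with 0.43 (FDR = 0.0459) without Unstimulated 1 and 0.36 (FDR = 0.128) without JQ1 2, so that the number of rises was 0 without Unstimulated 1 and 1 without JQ1 2. Both calls were lost with scaling by total counts (0.34 and 0.28) and with offsets fitted by loess (0.43 and 0.15).

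HoxA-peak17, the start-site peak kept for Hoxa9 and Hoxa10, had 2.45, 2.46 and 2.38 CPM/kb in Unstimulated and 1.80, 1.80 and 1.73 in JQ1. The values barely varied within each group and the groups did not overlap, yet the log2 fold change of -0.45 ± 0.14 (FDR = 0.0181) was short of the threshold of 0.5, so the peak was not called. In LPS it had 2.50, 2.43 and 2.48 CPM/kb, at the level of Unstimulated (0.02, FDR = 0.933). The neighbouring HoxA-peak18, which holds the gene start of Hoxa10, was not called either and did not show this fall. Its raw counts, before scaling, were 164, 221 and 216 in Unstimulated and 209, 226 and 242 in JQ1. These come from libraries of unequal size and are not on the scale of the HoxA-peak17 values. With TMM scaling every JQ1 library lay above every Unstimulated one, and with total counts the groups overlapped.

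IL-10 against Unstimulated asks what the cytokine does without LPS. Accessibility rose at 1 Hox peak and fell at 2, where 5.16% of all tested peaks were called higher and 3.5% lower. The rise was in HoxA, and the falls were in HoxC and HoxD. HoxB had 0 calls by edgeR and by DESeq2, with 0 higher and 4 lower at an unadjusted p under 0.05. Over the members together 5 were higher and 19 lower at an unadjusted p under 0.05, and DESeq2 called 2 higher and 0 lower. The falls depended on the scaling, with 14 by total counts, 6 by loess offsets and 13 with separate scaling of promoter and distal peaks (8.58%, 1.47% and 3.27% of all tested peaks), against 0, 0 and 1 rises. Medians were -0.29 in HoxC and -0.33 in HoxD, against -0.04 in HoxA, -0.05 in HoxB and -0.05 over all peaks, and all 4 were negative under each of the 4 scalings.

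HoxA-peak4 was again the peak that rose, to 23.3, 19.3 and 22.8 CPM/kb in IL-10 (0.68 ± 0.17, FDR = 0.00329). All IL-10 libraries were above all Unstimulated ones, and without Unstimulated 1 the value was 0.39 (FDR = 0.156). HoxC-peak18, over the start of Hoxc8 (chr15:102820466-102822436), had 3.67, 1.92 and 1.14 CPM/kb in Unstimulated and 1.25, 1.21 and 1.55 in IL-10. The groups overlapped (-0.72 ± 0.24, FDR = 0.0338), and the value was -0.20 (FDR = 0.758) without Unstimulated 1, -0.82 (FDR = 0.0514) without Unstimulated 2, -0.66 (FDR = 0.118) without IL-10 1 and -0.66 (FDR = 0.117) without IL-10 2. HoxD-peak3, over an exon of Hoxd13 (chr2:74507066-74509108), had 1.97, 2.07 and 1.56 CPM/kb in Unstimulated and 0.722, 1.71 and 1.04 in IL-10. Its groups overlapped too (-0.68 ± 0.24, FDR = 0.0455), and its FDR was above 0.05 without Unstimulated 1 (0.151), Unstimulated 2 (0.179), IL-10 1 (0.341), IL-10 3 (0.166) or LPS 2 (0.0502). Neither fall was called by DESeq2. The number of falls was 0 without Unstimulated 1, Unstimulated 2 or IL-10 1, 1 without IL-10 2, IL-10 3 or LPS 2, and 7 without Unstimulated 3. The number of rises was 0 without Unstimulated 1, 3 without Unstimulated 3 and 2 without IL-10 2.

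**Figure D3:**
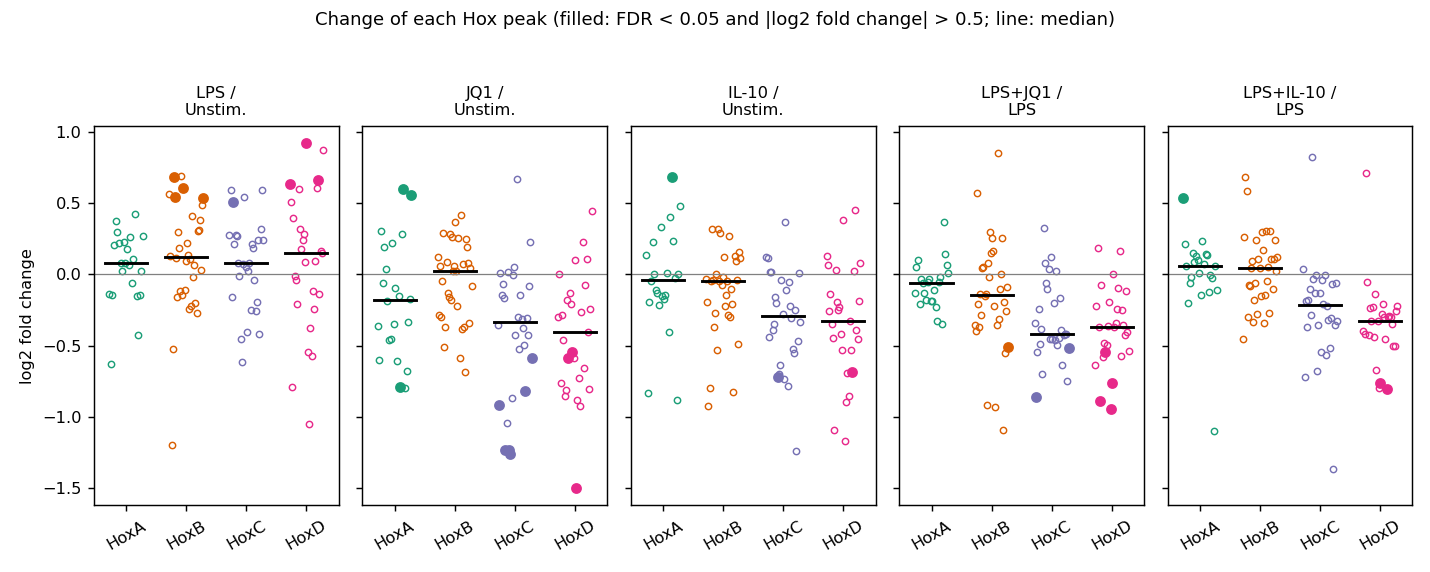
Log2 fold change of each of the 109 member peaks in the 5 comparisons, by cluster, with called peaks filled and a line at the cluster median. In the 4 treatment comparisons the HoxC and HoxD medians lie between -0.42 and -0.22 and are negative under all 4 scalings, and in the LPS comparison the 4 medians lie between 0.08 and 0.15 but are negative with scaling by total counts.

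LPS+JQ1 against LPS asks what BET inhibition does to cells that receive LPS. Accessibility fell at 7 Hox peaks and rose at 0, where 3.49% of all tested peaks were called lower and 1.74% higher. At an unadjusted p under 0.05, 1 was higher and 22 lower, and DESeq2 called 4 lower and 0 higher. Of these, 4 were in HoxD, 2 in HoxC and 1 in HoxB, while HoxA had 0 calls by edgeR and by DESeq2 and 0 at an unadjusted p under 0.05. Negative log2 fold changes were found at 24 of 27 HoxD, 23 of 28 HoxC, 21 of 32 HoxB and 16 of 22 HoxA peaks. Medians were -0.37 in HoxD, -0.42 in HoxC, -0.14 in HoxB and -0.06 in HoxA, against -0.003 over all peaks, and all 4 were negative under each of the 4 scalings.

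HoxD-peak20, in an exon of 1700109F18Rik within Hoxd3 (chr2:74552306-74553504), had 1.99, 2.04 and 1.5 CPM/kb in LPS and 0.577, 1.18 and 1.04 in LPS+JQ1. The groups did not overlap (-0.94 ± 0.30, FDR = 0.0409), with an FDR of 0.141 without LPS 1 and without LPS 2, 0.189 without LPS+JQ1 1 and 0.0975 without LPS+JQ1 3. HoxD-peak13, over an exon of Hoxd10 (chr2:74529302-74531517), had 2.26, 1.71 and 1.81 CPM/kb in LPS and 1.42, 0.912 and 0.893 in LPS+JQ1. All LPS+JQ1 libraries were lower (-0.89 ± 0.22, FDR = 0.0055), with 0.076 without LPS 1, 0.0551 without LPS+JQ1 2 and 0.0841 without LPS+JQ1 3.

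HoxC-peak10, over an exon of Hoxc10 (chr15:102800791-102802040), had 2.50, 1.72 and 2.87 CPM/kb in LPS and 1.23, 1.62 and 1.06 in LPS+JQ1. The groups did not overlap (-0.86 ± 0.28, FDR = 0.0421), with an FDR of 0.142 without LPS 1, 0.22 without LPS 3, 0.0907 without LPS+JQ1 1 and 0.247 without LPS+JQ1 3. HoxD-peak21, the peak with the largest rise in LPS, had 3.29, 2.07 and 3.04 CPM/kb in LPS+JQ1, all below the LPS libraries (-0.76 ± 0.24, FDR = 0.0392), with an FDR of 0.163 without LPS 1, 0.118 without LPS 3, 0.26 without LPS+JQ1 2 and 0.0788 without LPS+JQ1 3. HoxD-peak17 at Hoxd9 (-0.55), HoxC-peak9 at Hoxc10 (-0.52) and HoxB-peak9 over exons of Hoxb7 and Hoxb8 (-0.51) were the other falls. These 3 also lost the call without any of several libraries, LPS 1 among them (FDR 0.0619, 0.14 and 0.2). HoxC-peak9, HoxC-peak10 and HoxD-peak17 were called lower both here and in JQ1 against Unstimulated. The libraries of these comparisons do not overlap. Both come from 1 fit with a shared spread per peak and from the same 3 mice, so they are not independent tests. The number of falls was 1 without LPS 1 or LPS+JQ1 3 and 3 without LPS+JQ1 2.

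LPS+IL-10 against LPS asks what IL-10 does to cells that receive LPS. Accessibility rose at 1 Hox peak and fell at 2, where 4.26% of all tested peaks were called higher and 4.51% lower. At an unadjusted p under 0.05, 2 were higher and 16 lower, and DESeq2 called 1 higher and 1 lower. The rise was in HoxA and both falls were in HoxD. HoxB and HoxC had 0 calls by edgeR and by DESeq2, with 0 higher and 1 lower in HoxB and 0 higher and 5 lower in HoxC at an unadjusted p under 0.05. Negative log2 fold changes were found at 26 of 27 HoxD and 26 of 28 HoxC peaks, against 14 of 32 in HoxB and 9 of 22 in HoxA. Medians were -0.33 in HoxD and -0.22 in HoxC, and 0.04 in HoxB and 0.06 in HoxA, against -0.01 over all peaks, with the same signs under all 4 scalings.

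HoxA-peak1, an intergenic peak at the low end of the HoxA window (chr6:52099710-52102553) with AP-1, homeodomain and HOX-PBX matches, had 2.28, 2.63 and 2.39 CPM/kb in LPS and 3.23, 3.61 and 3.78 in LPS+IL-10. The groups did not overlap (0.54 ± 0.15, FDR = 0.0116), with an FDR of 0.0748 without LPS 1 and 0.0697 without LPS+IL-10 3. HoxD-peak26, at the start of the noncoding gene 6720416L17Rik (chr2:74587161-74588596), had 2.11, 1.77 and 1.33 CPM/kb in LPS and 1.2, 1.05 and 0.768 in LPS+IL-10. All LPS+IL-10 libraries were lower (-0.81 ± 0.27, FDR = 0.038), and the FDR was 0.229 without LPS 1, 0.0853 without LPS 2, 0.0755 without LPS+IL-10 2 and 0.223 without LPS+IL-10 3.

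HoxD-peak21 had 3.48, 2.77 and 2.14 CPM/kb in LPS+IL-10, again below all LPS libraries (-0.76 ± 0.24, FDR = 0.0249). The FDR of this fall was 0.118 without LPS 1, 0.0764 without LPS 3, 0.0682 without LPS+IL-10 2 and 0.191 without LPS+IL-10 3. The number of falls was 0 without LPS 1, LPS+IL-10 2 or LPS+IL-10 3, 1 without LPS 3, and 4 without Unstimulated 3, LPS 2 or LPS+IL-10 1, and the rise was lost without LPS 1 or LPS+IL-10 3.

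The interaction tests ask whether the LPS effect differed with the treatment. With IL-10, 3 Hox peaks had a lower and 0 a higher LPS effect, where 5.9% of all tested peaks had a lower and 2.01% a higher one, and DESeq2 called 4 lower and 0 higher. The direction of this count turned with the scaling, to 7 higher and 0 lower by total counts, 5 higher and 1 lower by loess offsets and 5 higher and 2 lower with separate scaling (of all tested peaks 6.28%, 2.13% and 2.45% higher and 2.65%, 2.01% and 4.51% lower). The 3 lower peaks by TMM were HoxD-peak21 (-1.14 ± 0.35, FDR = 0.0238), HoxD-peak5 (-0.81 ± 0.25, FDR = 0.0249) and HoxA-peak4 (-0.81 ± 0.23, FDR = 0.0166). With JQ1, 1 Hox peak, HoxC-peak18, had a higher LPS effect (1.17 ± 0.35, FDR = 0.0399) and 0 a lower one, where 0.649% of all tested peaks had a higher and 3.19% a lower one, and DESeq2 called 1 higher and 0 lower.

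The library values behind these 4 were as follows. At HoxD-peak21, IL-10 alone gave 2.53, 3.87 and 3.34 CPM/kb, not called against Unstimulated (0.38, FDR = 0.36), and LPS+IL-10 lay below LPS. At HoxD-peak5, IL-10 alone gave 9.78, 8.16 and 9.71 CPM/kb, all above Unstimulated but not called (0.46, FDR = 0.08), and LPS+IL-10 gave 9.84, 8.21 and 6.99, not called against LPS (-0.35, FDR = 0.197). By total counts the IL-10 interaction was called at none of its 3 peaks, at -0.88 (FDR = 0.101) for HoxD-peak21, -0.54 (FDR = 0.144) for HoxD-peak5 and -0.55 (FDR = 0.0903) for HoxA-peak4. At HoxA-peak4 and HoxC-peak18 the interaction rested on the Unstimulated group, in which Unstimulated 1 was lowest and highest respectively. Without it the values were -0.51 (FDR = 0.155) and 0.65 (FDR = 0.413). The FDR of HoxD-peak21 rose to between 0.0545 and 0.104 without Unstimulated 1, IL-10 2, IL-10 3, LPS 1 or LPS+IL-10 3, and that of HoxD-peak5 to between 0.0572 and 0.13 without Unstimulated 1, IL-10 1, IL-10 3, LPS 2 or LPS+IL-10 3. HoxC-peak18 also missed the threshold without Unstimulated 2, LPS 1, LPS 3, LPS+JQ1 2, LPS+JQ1 3 or any JQ1 library (FDR 0.052 to 0.126).

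The strongest peaks of HoxB and HoxC were not called in any comparison. HoxB-peak24, in the Hoxb4 exon, had 15.9, 18.4 and 23.1 CPM/kb in Unstimulated and 22.5, 28.1 and 23.6 in JQ1, where the groups overlapped (0.37, FDR = 0.0627). It lay at 19.6 to 21.9 CPM/kb in IL-10, 20.7 to 23.7 in LPS, 25.9 to 28.4 in LPS+JQ1 and 19.8 to 20.4 in LPS+IL-10. HoxC-peak17 before Hoxc8 stayed between 2.16 and 3.11 CPM/kb in all 18 libraries, with log2 fold changes from -0.20 to 0.08 over the 5 comparisons, while HoxC-peak18, 1 peak further along, had the calls given above.

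Summing the members of a cluster in each library gave 1 value per cluster and library, for which a two-sided exact permutation test of 3 libraries against 3 cannot go below p = 0.1, so these are given as values with their spread. Groups that did not overlap have that smallest p.

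HoxD was lower under both treatments, with and without LPS. Its sum was 93.5 ± 3.51 CPM (SD, n = 3, range 89.6 to 96.4) in Unstimulated, 74.5 ± 1.12 (73.6 to 75.7) in JQ1 and 79.8 ± 0.637 (79.1 to 80.3) in IL-10. It was 108 ± 4.20 (105 to 112) in LPS, 81.1 ± 8.39 (72.8 to 89.6) in LPS+JQ1 and 84.9 ± 1.35 (83.6 to 86.3) in LPS+IL-10. In none of the 4 treatment comparisons did the groups overlap, and the log2 differences were -0.33 for JQ1, -0.23 for IL-10, -0.41 for LPS+JQ1 and -0.34 for LPS+IL-10, with the same sign when libraries were scaled by total counts.

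HoxC behaved alike, with a wider spread in every group except LPS+JQ1. Its sum was 90.3 ± 12.3 CPM (77.6 to 102) in Unstimulated, with Unstimulated 1 highest, 71.7 ± 3.73 (67.7 to 75.1) in JQ1 and 74.4 ± 1.17 (73.7 to 75.8) in IL-10. It was 98.8 ± 9.03 (89.2 to 107) in LPS, 78.9 ± 2.18 (76.4 to 80.3) in LPS+JQ1 and 84.0 ± 3.57 (80.4 to 87.6) in LPS+IL-10. None of these 4 pairs of groups overlapped, with log2 differences of -0.32 for JQ1, -0.27 for IL-10, -0.32 for LPS+JQ1 and -0.23 for LPS+IL-10, again of the same sign with total counts. Without Unstimulated 1 the JQ1 difference was -0.23 and the IL-10 difference -0.18 in HoxC, against -0.32 and -0.22 in HoxD.

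In HoxA and HoxB the treated libraries overlapped with their controls. HoxA summed to 230 ± 9.94 CPM in Unstimulated, 226 ± 7.13 in JQ1 and 243 ± 7.64 in IL-10, and to 260 ± 15.4 in LPS, 245 ± 5.92 in LPS+JQ1 and 269 ± 19.2 in LPS+IL-10. HoxB summed to 135 ± 6.38 CPM in Unstimulated, 137 ± 4.07 in JQ1 and 132 ± 4.89 in IL-10, and to 155 ± 7.66 in LPS, 149 ± 5.11 in LPS+JQ1 and 149.5 ± 12.6 in LPS+IL-10. In all 8 treatment comparisons of these 2 clusters the groups overlapped, with log2 differences from -0.09 to 0.08. These depended on the scaling, and with total counts JQ1 gave -0.31 in HoxA and -0.26 in HoxB, and IL-10 -0.13 and -0.24. With LPS alone the sums of HoxA, HoxB and HoxD lay above Unstimulated without overlap (log2 differences 0.18, 0.20 and 0.20) and those of HoxC overlapped (0.13), but all 4 differences were between -0.10 and -0.03 with scaling by total counts. The HoxC difference was 0.03 without Unstimulated 3, 0.07 without LPS 1, 0.21 without LPS 3 and 0.23 without Unstimulated 1.

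**Figure D4:**
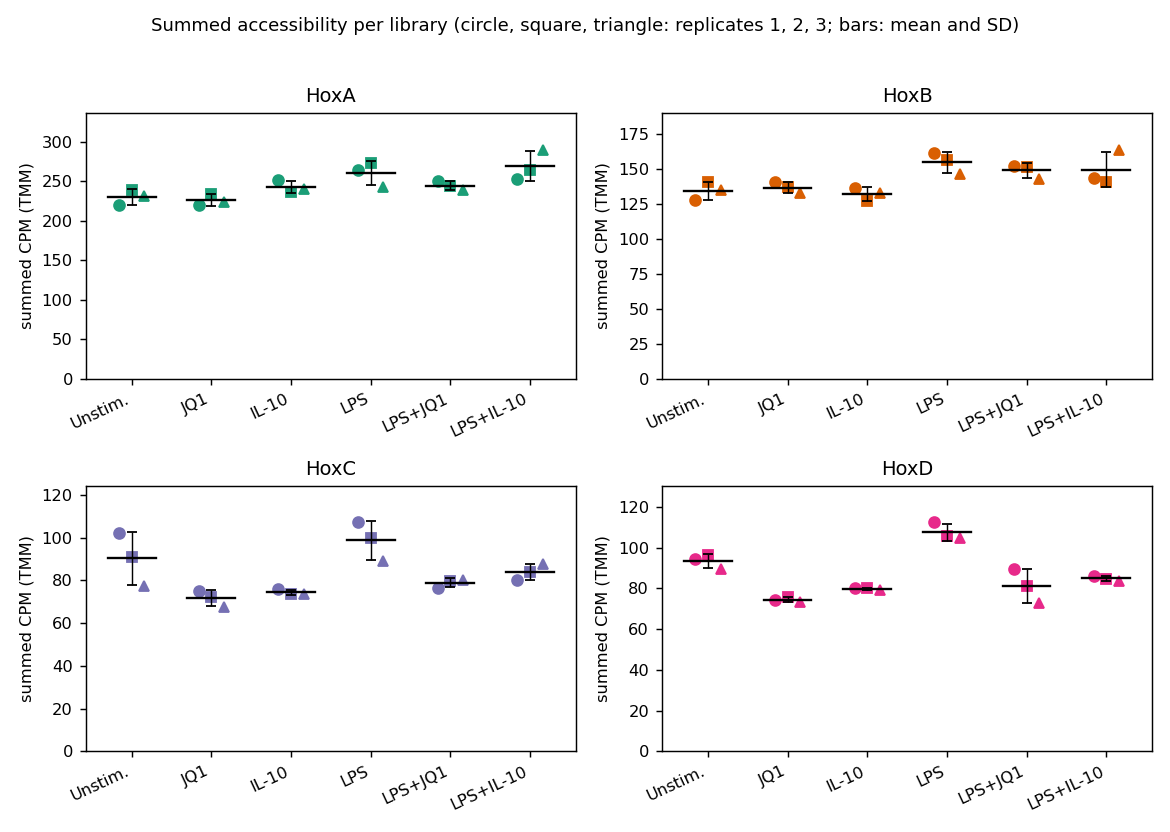
Summed accessibility (TMM-scaled CPM) of the member peaks of each cluster in each library, with circles, squares and triangles for replicates 1, 2 and 3 and bars for the mean and SD. HoxC and HoxD lie lower in the treated groups without overlap (HoxD 73.6 to 75.7 in JQ1 against 89.6 to 96.4 in Unstimulated), a direction kept with total counts, whereas the rise with LPS turns negative with that scaling.

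The ratio of 2 clusters within a library is the same under any scaling by 1 factor per library, such as TMM or total counts, but not with loess offsets or separate scaling of promoter and distal peaks. The log2 ratio of HoxD to HoxA was lower in JQ1 by 0.31, in IL-10 by 0.31, in LPS+JQ1 by 0.32 and in LPS+IL-10 by 0.39, and in none of these did the groups overlap. Within lane 5 these differences were -0.34 for JQ1, -0.34 for IL-10, -0.25 for LPS+JQ1 and -0.31 for LPS+IL-10. Within lane 6 they were -0.24, -0.24, -0.36 and -0.43, from 1 or 2 libraries a group in each lane. The ratio of HoxC to HoxA differed by -0.35 in IL-10, -0.23 in LPS+JQ1 and -0.28 in LPS+IL-10 without overlap and by -0.30 in JQ1 with overlap, and it was lower within both lanes in all 4 comparisons (-0.46 to -0.13). The ratio of HoxB to HoxA differed by -0.10 in both IL-10 comparisons, without overlap, and by 0.05 and 0.03 in JQ1 and LPS+JQ1, with overlap. With LPS alone all 3 ratios overlapped, at differences from -0.04 to 0.03, and that of HoxC to HoxA ran from -0.15 without Unstimulated 3 to 0.08 without Unstimulated 1. Without Unstimulated 1 the differences of HoxD to HoxA were -0.26 in both JQ1 and IL-10, and those of HoxC to HoxA -0.18 and -0.22.

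Scaling moved the level of all clusters together. With total counts, the median over all peaks was -0.26 for LPS, -0.37 for JQ1 and -0.26 for IL-10, where TMM gave -0.03, -0.09 and -0.05. The median of each cluster in LPS then ranged from -0.16 to -0.08, above the all-peak median, and in JQ1 HoxB (-0.25) lay above it and HoxA (-0.47), HoxC (-0.62) and HoxD (-0.70) below it. With loess offsets, chosen after the data were seen, the JQ1 medians were -0.38 in HoxA, -0.09 in HoxB, -0.19 in HoxC and -0.42 in HoxD, and 7 falls were called in HoxA, 1 in HoxB, 3 in HoxC and 2 in HoxD. The order of HoxA and HoxC in JQ1 therefore depended on this choice, and the position of HoxD as the lowest was kept under TMM, total counts and loess but not when promoter and distal peaks were scaled separately (-0.56, against -0.60 in HoxC).

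**Figure D5:**
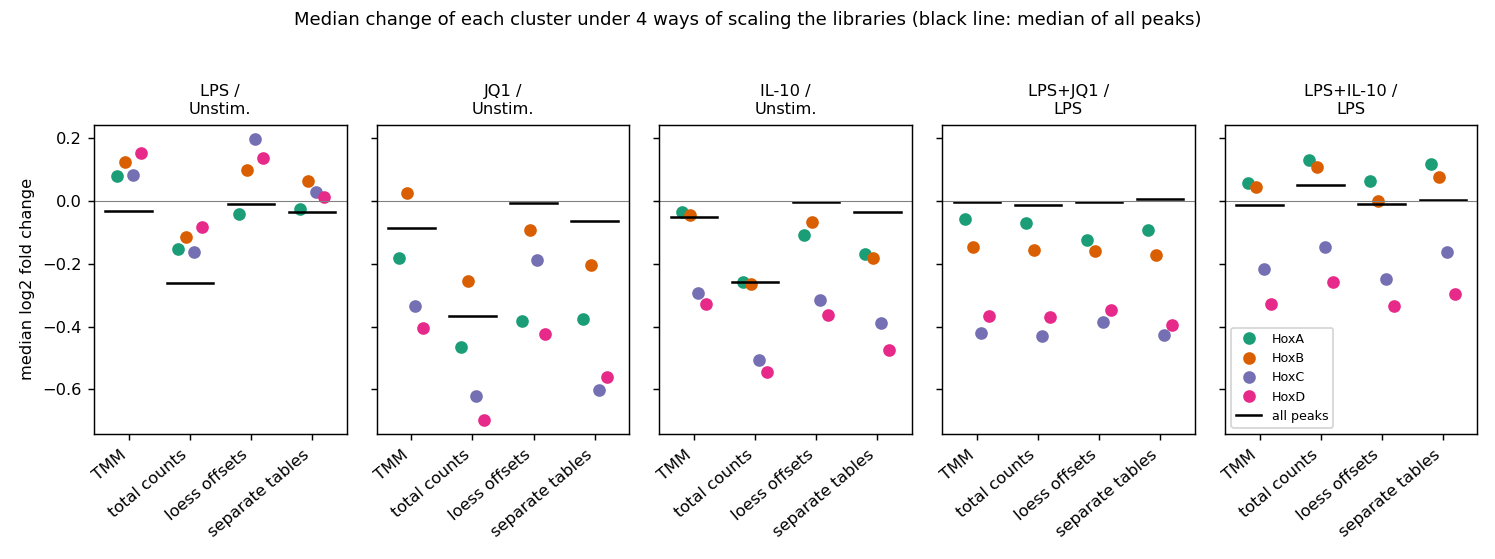
Median log2 fold change of the member peaks of each cluster (coloured points) and of all peaks (line) in the 5 comparisons under TMM, total counts, loess offsets and separate scaling of promoter and distal peaks. HoxC and HoxD are below 0 in the 4 treatment comparisons under all 4 scalings, while in LPS the cluster medians run from -0.16 to 0.20 and change sign.

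By class, the 65 promoter members had 4 rises and 0 falls in LPS, where 5237 of all 36666 tested promoter peaks rose and 2459 fell, and 2 rises and 6 falls in JQ1, where 8407 rose and 789 fell. The 44 distal members had 4 rises and 0 falls in LPS, where 17553 of all 157564 tested distal peaks rose and 17343 fell, and 0 rises and 4 falls in JQ1, where 6840 rose and 5336 fell. The promoter members' median log2 fold change in JQ1 was -0.25, while that of all promoter peaks was 0.08, and in IL-10 it was -0.22 against 0.10. The distal members' medians were -0.20 in JQ1 and -0.04 in IL-10, against -0.12 and -0.08 over all distal peaks.

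The genes that regulate or accompany the clusters had stronger starts than the Hox genes. Of 40 such genes, 37 had a start-site peak, with a median of 23.5 CPM/kb. With JQ1, 22 of the 37 rose and 0 fell, where 8407 of 36666 promoter peaks rose and 789 fell, but this count moved with the scaling and with Unstimulated 1. It was 16 higher and 0 lower without Unstimulated 1, 7 higher and 3 lower with total counts, 6 higher and 4 lower with promoter and distal peaks scaled separately, and 0 higher and 3 lower with loess offsets. With LPS 8 rose and 0 fell, where 5237 promoter peaks rose and 2459 fell, and with IL-10 12 rose and 0 fell, where 3198 rose and 724 fell. These rises were 3 and 4 without Unstimulated 1, 1 and 1 with total counts or with separate scaling, and 1 and 0 with loess offsets. With either treatment against LPS, 0 were called by edgeR and by DESeq2, with 3 higher and 2 lower in LPS+JQ1 and 1 higher and 14 lower in LPS+IL-10 at an unadjusted p under 0.05.

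The members named next carry the TMM values of the JQ1 comparison, and none of these rises was called with loess offsets. Among the 9 cofactors, which raise the DNA affinity of Hox proteins, 4 rose, among them Pbx2 (0.70), Pbx4 (0.61) and Pknox1 (0.99). Of the activators, 6 of 7 had a peak and 4 rose, namely Mll1 (0.89), its partners Men1 (0.75) and Psip1 (0.60), and the H3K79 methyltransferase gene Dot1l (0.55). All 12 Polycomb genes had a peak and 8 rose, among them Rnf2 (0.76) and Suz12 (0.68). The demethylase gene Kdm6a rose (0.79) and Kdm6b was not called.

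Of the 10 neighbours of the clusters, 8 had a start-site peak and 5 rose with JQ1 under TMM, which were Calcoco1 beside HoxC (0.98), Skap2 (0.87), Hibadh (0.85) and Snx10 (0.76) in the region of HoxA, and Mtx2 beside HoxD (0.59). Snx10 had a log2 fold change of 1.43 with LPS. Evx1 and Evx2, the homeobox genes at the ends of HoxA and HoxD, were not called. At Evx2 the log2 fold change was -0.42 (FDR = 0.0458) in LPS+JQ1 and -0.45 (FDR = 0.0207) in LPS+IL-10, both short of the fold threshold.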

How the data were processed

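ATAC-seq counts in peaks were analysed for 18 libraries, 3 for each of 6 groups. Per the labels and the study's methods, the authors aligned reads to mm9 with Bowtie2 in PEPATAC, called peaks per library with MACS2, took the union and classed peaks as promoter or distal with ChIPseeker. The deposited values are raw counts per peak, not normalized or pooled. The counting tool and any shift of insertion sites are not given in the sources used here. The table has 6 columns that match no described sample, and these were not used.

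Peaks passing filterByExpr (194230 of 194284) were scaled by TMM and tested in 1 edgeR 4.0.16 quasi-likelihood fit (R 4.3.3) over all 18 libraries without a block, with Benjamini-Hochberg adjustment over all tested peaks, for 5 comparisons and 2 interactions. A called peak had an FDR under 0.05 and an absolute log2 fold change above 0.5. CPM/kb is TMM-scaled CPM divided by peak width in kb. The p-values of this fit rest on the spread between libraries of the same group, estimated for each peak over all 6 groups and moderated over all peaks. A call can therefore change when a library of a group not compared is left out. Groups came from the labels, and lanes from the labels too. The sources used here do not tie the replicate numbers to a mouse, so they were not treated as pairs.

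Alternatives were DESeq2 1.42.0, its size factors, total counts, loess offsets (span 0.3, added after the data were seen), promoter and distal tables separately, no filter, at least 10 counts in every library, the replicate block, the lane, only the groups compared, an FDR of 0.01, no 5000 bp extension, the mean of log2 CPM in place of the sum, and each library left out.

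Named with full values were the strongest peak of each cluster, the 3 largest called rises and 3 largest called falls of each comparison, and the start-site peak kept for Hoxa9 and Hoxa10. The interaction peaks and other peaks were named after their values were seen. The members, gene lists and tests were chosen with earlier results of these data known. On counts simulated for LPS against Unstimulated, with 200 of 190390 tested peaks changed by 1.5 on the log2 scale, the fit recovered 193 (96.5%) and called 8 unchanged peaks. These changes were larger than nearly all called Hox fold changes. They were placed only in peaks with enough counts, with 1 common dispersion and the libraries of 2 groups. The recovery therefore does not give the power for the Hox peaks. Genes and sequence came from GENCODE M1 and mm9, scripts ran in Python 3.11.15, and mature miRNA sequences came from RefSeq (GRCm38.p6). RNA expression was not analysed here, and a few genes and 1 sequence are not reported here.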

Additional observations from a re-analysis of the deposited data

Results flagged for a closer look

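At 4 Hox peaks the LPS effect differed with the treatment by the interaction test of the same edgeR fit. With IL-10 the LPS effect was lower by 1.14 on the log2 scale (-1.14, FDR = 0.0238) at HoxD-peak21 inside Hoxd3, -0.81 (FDR = 0.0249) at HoxD-peak5 between Hoxd13 and Hoxd12, and -0.81 (FDR = 0.0166) at HoxA-peak4 in an intron of Gm15051. With JQ1 it was 1.17 higher (FDR = 0.0399) at HoxC-peak18 over the start of Hoxc8. With scaling by total counts the 3 IL-10 interactions were not called (-0.88, FDR = 0.101, -0.54, FDR = 0.144, and -0.55, FDR = 0.0903), and 7 other Hox peaks were called with a higher LPS effect. With loess offsets HoxD-peak5 (FDR = 0.0696), HoxA-peak4 (FDR = 0.0559) and HoxC-peak18 (FDR = 0.112) were not called. Of 28 alternatives, 20 still called HoxD-peak21, 20 HoxD-peak5, 24 HoxA-peak4 and 17 HoxC-peak18. The values of Unstimulated 1 moved with the results at HoxA-peak4, where it was lowest, and at HoxC-peak18, where it was highest, and without it these were -0.51 (FDR = 0.155) and 0.65 (FDR = 0.413).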

How the results depend on the processing

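Of the recomputed counts, sums and ratios, 680 stayed within 1.5 times or 1 SD and 125 moved further, and of the values for called named peaks 409 kept and 80 lost the call, with no turn in direction. Counts are given as higher/lower Hox peaks. By DESeq2 they were 2/0 for IL-10, with 4 lower for LPS+JQ1 and 1 lower for LPS+IL-10, and with its size factors 2/1 for IL-10. At an FDR of 0.01, LPS had 4 higher, JQ1 5 lower, IL-10 0 lower, LPS+JQ1 2 lower, LPS+IL-10 0/0, and the interactions 0 higher with JQ1 and 0 lower with IL-10. With at least 10 counts in every library, LPS had 5/1, JQ1 1 higher, IL-10 8 lower and the IL-10 interaction 1 higher. These counts cover fewer than the 109 members. The filter removed, among others, the called peaks HoxD-peak22, HoxC-peak19, HoxC-peak15 and HoxD-peak20. Without the extension, LPS had 5 higher, JQ1 1 higher, IL-10 0 higher, LPS+IL-10 0/1 and the IL-10 interaction 1 lower, the HoxD log2 sums differed by 0.14 for LPS, -0.37 for JQ1 and -0.31 for IL-10, and HoxB to HoxA by -0.0087 for LPS and -0.087 for IL-10. With loess offsets, LPS had 5 higher, JQ1 0 higher, IL-10 0/6, LPS+IL-10 0 higher, and the interactions 2 higher with JQ1 and 5/1 with IL-10. With separate tables, LPS had 2 lower, JQ1 0/23, IL-10 13 lower, LPS+IL-10 1 lower, and the interactions 3 higher with JQ1 and 5 higher with IL-10. With only the groups compared, IL-10 had 1 lower. With the replicate block, LPS had 1 lower, and no other count moved by over 1.5 times. Whether libraries of the same replicate number share a mouse is not known. Deviations from the group means correlated at a mean of 0.0068 over 45 same-number pairs and -0.0034 over 90 other pairs (0.0299 and -0.0149 in the Hox peaks). Of 18 libraries, 10 correlated best with their own number, and 11 in the Hox peaks. The number goes partly with the lane, so these values cannot settle whether the libraries are pairs. With total counts, LPS had 1/4, JQ1 0/29, IL-10 0/14, LPS+IL-10 1 lower, and the interactions 3 higher with JQ1 and 7/0 with IL-10. The sums of HoxA, HoxB, HoxC and HoxD then differed by -0.054, -0.028, -0.097 and -0.029 for LPS, -0.31, -0.26, -0.61 and -0.62 for JQ1 and -0.13, -0.24, -0.48 and -0.44 for IL-10, and HoxD by -0.28 for LPS+IL-10. With the mean log2 CPM, LPS gave 0.068 in HoxA, 0.12 in HoxB and 0.10 in HoxD, JQ1 -0.12 in HoxA and -0.039 in HoxB, IL-10 0.00066 in HoxA, and HoxD -0.29 for LPS+JQ1 and -0.27 for LPS+IL-10. The causes were not tested. Leaving out 1 library gave 4 to 10 higher and 0 to 1 lower for LPS, 0 to 3 higher and 6 to 11 lower for JQ1, 0 to 3 higher and 0 to 7 lower for IL-10, 1 to 8 lower for LPS+JQ1, 0 to 1 higher and 0 to 4 lower for LPS+IL-10, 0 to 1 higher and 0 to 2 lower for the JQ1 interaction, and 0 to 1 higher and 0 to 5 lower for the IL-10 interaction. Low counts limit single peaks, with a median of 45 counts. The counts in this paragraph are given without the share of all tested peaks under the same setting.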

Other observations

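The Hox clusters also hold microRNA genes, whose products are known to target Hox transcripts. Their mature sequences, from RefSeq (GRCm38.p6), fall into 2 families by the seed, bases 2 to 8, in capitals.
mmu-miR-10a-5p: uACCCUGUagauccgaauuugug
mmu-miR-10b-5p: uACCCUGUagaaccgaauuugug
mmu-miR-196a-5p: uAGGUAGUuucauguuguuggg
mmu-miR-196b-5p: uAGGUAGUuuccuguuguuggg
In the annotation, member peaks overlapped the promoter window of Mir10a (HoxB-peak22 at 3.11 and HoxB-peak23 at 2.88 CPM/kb), Mir196b (HoxA-peak16 at 2.49), Mir615 (HoxC-peak27 at 2.25) and Mir196a-2 (HoxC-peak11 at 1.33). None of these 5 peaks was called in the 5 comparisons by edgeR. Among them HoxA-peak16 had a log2 fold change of -0.46 (FDR = 0.0697) in JQ1 against Unstimulated and HoxC-peak27 one of -0.45 (FDR = 0.108) in LPS+JQ1 against LPS.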
